A study of Mus musculus with 6 samples.

Results

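The killer cell lectin-like receptors (genes with symbols starting with Klr) and Ncr1, which encodes the natural cytotoxicity receptor NKp46, were followed in RNA of cells taken from B16 melanomas. Every gene symbol starting with Klr and Ncr1 itself was taken from the deposited tables, which gave 30 genes of 26754. Female C57BL/6J mice (genotype C57), 6 to 8 weeks old, carried B16 cells implanted under the skin, and cells were bound to CD8a magnetic beads from tumour suspensions on day 7 or on day 14. Every group carried a tumour, and no cells from tumour-free mice, spleen or another tissue entered the comparison. There were 3 libraries per day, numbered 1 to 3. Nothing in the labels says that they came from separate animals, so the p-values measure the spread between these samples, which may be technical.

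Day 7 replicates 1 and 2 differed by little more than sampling noise and were averaged as 1 sample, so n = 2 on day 7 and n = 3 on day 14. The median chi-square ratio per fragment, where 1 is sampling noise, was 1.11 between them, 40.9 and 44.4 between either and day 7 replicate 3, and 4.05 to 4.43 among the day 14 libraries. Depth ranged from 6523019 to 9313078 reads among the day 7 libraries and from 11385106 to 13316522 among those of day 14. Between 13133 and 13806 genes had a read in a day 7 library, and between 18318 and 19053 in a day 14 library. The labelled cell type is the CD8+ T cell, and its defining genes were present in every library: Cd8b1 was at 148, 148 and 123 RPKM (reads per kilobase of gene, scaled to a library of 1000000 reads) on day 7 and at 32.5, 39.2 and 31.1 on day 14. The 7 melanoma genes examined (Pmel, Tyr, Tyrp1, Dct, Mlana, Sox10 and Mitf) were also present in every library. They summed to 13349.5 to 14076 counts per 1000000 reads (CPM) on day 7 and to 24170.3 to 26496 on day 14, a ratio of 1.86. In bulk RNA of this kind, fewer cells of a type and less RNA per cell cannot be told apart.

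The Klr genes encode type II membrane proteins of the C-type lectin fold, first studied on natural killer (NK) cells and also carried by many activated and memory CD8 T cells. Inhibitory members hold a tyrosine-based motif in their tail that recruits the phosphatase SHP-1 (Ptpn6), whereas activating members signal through adaptors: DAP12 (Tyrobp) for the activating Ly49 receptors, DAP10 (Hcst) or DAP12 for NKG2D, and the Fc receptor gamma chain (Fcer1g) for NK1.1. Ligands include classical MHC class I for the Ly49 receptors (Klra genes), the peptide-presenting molecule Qa-1 (H2-T23) for CD94/NKG2, stress-induced proteins for NKG2D, Clec2 proteins for the NKR-P1 receptors (Klrb1 genes) and cadherins for KLRG1. NKp46, an immunoglobulin-fold receptor, is used in mice as a marker of NK cells and some innate lymphoid cells.

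Klrg1, Klrg2 and the other 27 Klr genes lie on mouse chromosome 6 (GRCm38). The main cluster, known as the NK gene complex, runs from chr6:128609227-131247362, Klrg2 and Klrg1 start at 38625693 and 122270596, and Ncr1 lies on chromosome 7 (chr7:4337724-4345164). Each gene had the same ends as in GENCODE M21. Klra11-ps, Klra13-ps and Klra14-ps are annotated pseudogenes. Several members are close copies of each other, so reads could be placed in the wrong copy. Klra9 and Klra3 shared 95.6% of 1246 aligned transcript bases, Klra10 and Klra9 97.0% of 823, and Klra8 and Klra14-ps 95.4% of 1115. Stretches of 150 bases, the length of 1 read, were identical to another gene's transcript in 6.03% of Klra8, 7.34% of Klrc3 and 4.32% of Klrc1, and in 0% of Klra9, Klra10, Klrk1, Klrd1, Klre1 and Ncr1. Klrb1b and Klrb1c overlapped the gene model Gm44511 on the same strand by 599 and 413 bases, so the values of these NKR-P1 genes are uncertain.

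Sequences upstream of the start site are shown for members the results turn on: Klra9 and Klra3, near-identical Ly49 genes with unlike values, and Klrk1, Klrc1 and Ncr1, which stand for NKG2D, NKG2A and NKp46. Each is the 250 bases before a RefSeq start site (GRCm38.p6), read 5′ to 3′ on the gene's strand. Capitals mark TGTGGT (a RUNX motif, ACCACA on the other strand) and TCACAC (a T-box motif, GTGTGA on the other strand), and a sequence without capitals holds neither.
Klra9, chr6:130193113-130193362, minus strand: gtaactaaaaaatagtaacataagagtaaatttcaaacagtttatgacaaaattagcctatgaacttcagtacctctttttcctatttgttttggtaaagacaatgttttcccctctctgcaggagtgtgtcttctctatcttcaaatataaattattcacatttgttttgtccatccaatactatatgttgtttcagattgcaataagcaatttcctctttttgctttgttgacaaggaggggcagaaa
Klra3, chr6:130337627-130337876, minus strand: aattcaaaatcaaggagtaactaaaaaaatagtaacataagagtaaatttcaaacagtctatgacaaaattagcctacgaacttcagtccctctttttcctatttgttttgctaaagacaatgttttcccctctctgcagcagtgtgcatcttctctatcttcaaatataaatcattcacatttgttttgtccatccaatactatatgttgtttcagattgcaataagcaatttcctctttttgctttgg
Klrk1, chr6:129623865-129624114, minus strand: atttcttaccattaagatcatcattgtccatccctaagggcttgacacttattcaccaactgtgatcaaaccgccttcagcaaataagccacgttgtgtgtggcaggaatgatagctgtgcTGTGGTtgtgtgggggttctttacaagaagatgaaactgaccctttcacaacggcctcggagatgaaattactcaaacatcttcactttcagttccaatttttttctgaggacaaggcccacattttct
Klrc1, chr6:129678974-129679223, minus strand: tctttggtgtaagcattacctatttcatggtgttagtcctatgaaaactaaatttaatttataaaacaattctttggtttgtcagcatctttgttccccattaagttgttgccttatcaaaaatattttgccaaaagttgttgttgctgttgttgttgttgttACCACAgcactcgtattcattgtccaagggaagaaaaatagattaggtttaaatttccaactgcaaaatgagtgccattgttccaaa
Ncr1, chr7:4337474-4337723, plus strand: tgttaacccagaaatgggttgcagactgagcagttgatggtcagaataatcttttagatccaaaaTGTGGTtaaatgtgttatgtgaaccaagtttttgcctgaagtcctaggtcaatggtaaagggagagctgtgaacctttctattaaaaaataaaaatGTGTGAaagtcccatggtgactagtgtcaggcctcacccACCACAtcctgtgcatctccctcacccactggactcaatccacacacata
The Klra9 and Klra3 windows shared 224 bases in alignment (89.6% of 250), the most of any pair among 11 Ly49 genes with an entry. The windows of Klrk1 and Klrc1 each held the RUNX letters at 1 place, and that of Ncr1 held them at 2 places beside 1 T-box match. Motifs were searched on both strands of the 250 bases before each start site. RUNX letters stood in 11 of 30 start sites of the 24 members with an entry (36.7%) and 14.0% of all 32851 mouse start sites. T-box letters stood in 4 of the 30 (13.3%) and in 12.3% of all, and the ETS letters GGAAGT, or ACTTCC on the other strand, in 4 of the 30 (13.3%) and in 19.7% of all. Such matches describe the letters of the windows, and many member windows are copies of each other. No motif's letters contain those of another.

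The family was lower on day 14 than on day 7. Together the 30 genes took 637, 673 and 869 CPM in the day 7 libraries and 161, 159 and 146 CPM in the day 14 libraries, 762 ± 151 (SD, n = 2) against 155 ± 7.97 (SD, n = 3), a ratio of 4.90. The CD94/NKG2 genes gave the largest part of these reads, with 239, 272 and 313 CPM on day 7 and 77.1, 64.6 and 56.3 on day 14. Ly49 genes summed to 211, 212 and 301 CPM on day 7 and to 46.8, 56.8 and 45.2 on day 14. CPM are not corrected for gene length. In summed RPKM the Ly49 genes were the higher in every library, at 178, 179 and 246 on day 7 and 35.2, 41.7 and 32.4 on day 14. The CD94/NKG2 genes were at 92.2, 111 and 99.8 RPKM on day 7 and at 27.1, 22.5 and 17.5 on day 14. In 17 of the 30 genes every day 14 library was below every day 7 library, against 8.59% of the 22716 genes with a read. In 1, Klri1, every day 14 library was above every day 7 library, against 27% of these genes. By group means, 27 genes were lower on day 14 and 3 were higher, and those 3 (Klri1, Klrb1 and Klra11-ps) had no read on day 7.

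**Figure D1:**
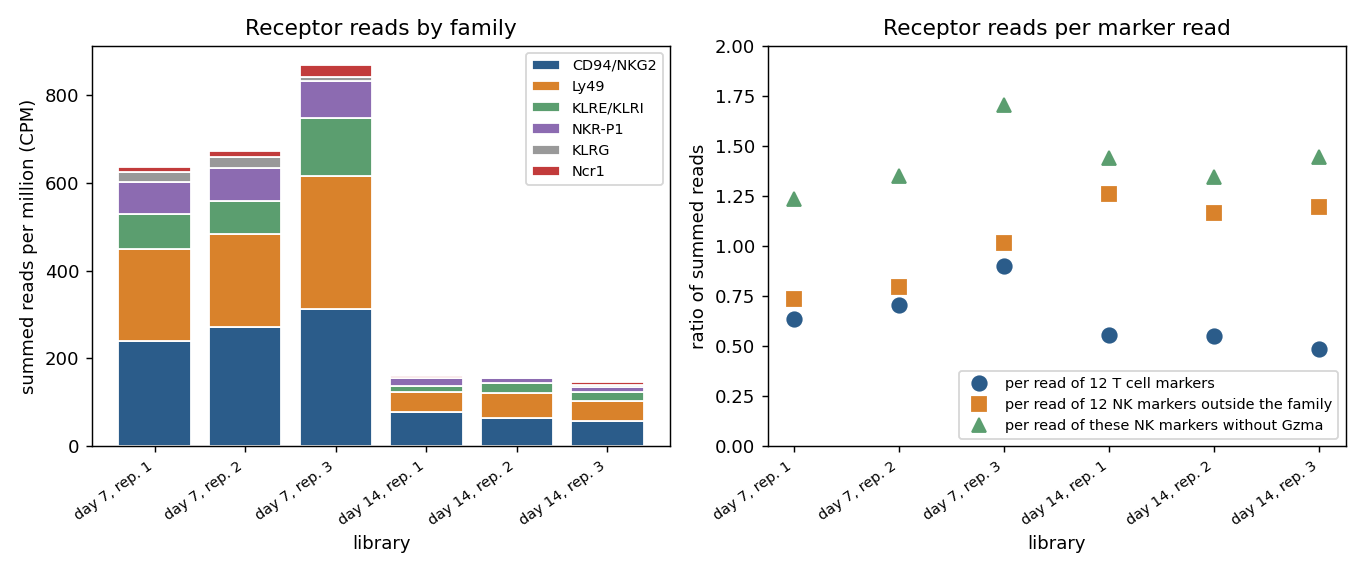
Summed CPM of the receptor genes in each of the 6 libraries, as bars stacked by receptor group (left), and the ratio of these reads to the reads of the 12 T cell markers (circles) the 12 NK cell markers (squares) and the NK cell markers without Gzma (triangles) in the same library (right). The whole family takes 637 to 869 CPM in the day 7 libraries and 146 to 161 in the day 14 libraries, and the days overlap in the ratio to NK cell markers without Gzma.

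Markers of T cells and NK cells were lower on day 14 as well. The 12 T cell markers summed to 952 to 1004 CPM on day 7 and to 288 to 302 on day 14, none of them at 0 in any library, and 7 of 10 tested fell while 0 rose. The 12 NK cell markers outside the family summed to 848 to 867 CPM on day 7 and to 122 to 137 on day 14. None was at 0 in any library, and 6 of 6 tested fell. Over all tested genes 4.8% fell and 3.65% rose. Genes were tested if their CPM averaged at least 20 across the 5 samples, so a gene high on day 7 alone could pass. The counts of tested markers therefore do not measure either list. Many of the NK cell markers, such as Gzma, Prf1 and Eomes, are also expressed by effector CD8 T cells. Over the family the ratio to T cell markers was 0.634, 0.706 and 0.900 on day 7 and 0.557, 0.548 and 0.485 on day 14, so each day 14 library was below each day 7 library on this scale also. The ratio to the NK cell markers was 0.734, 0.793 and 1.02 on day 7 and 1.26, 1.17 and 1.197 on day 14. That higher ratio on day 14 rested on Gzma, which gave 353, 350.3 and 345 CPM of the NK cell sum on day 7 and 15.99, 18.1 and 21.03 on day 14. Against the other 11 NK cell markers the ratio was 1.24, 1.35 and 1.70 on day 7 and 1.44, 1.34 and 1.45 on day 14, and the days overlapped. Macrophage and monocyte markers (10 genes, none at 0) summed to 486 to 705 CPM on day 7 and 1074 to 1133 on day 14. The part of these cell types in the receptors' values was not tested.

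A test was made on genes whose CPM averaged at least 20 across the 5 samples, and 6 members passed. It fits limma to log2(RPKM + 1), with Benjamini-Hochberg adjustment over 6691 genes and a gene called at an adjusted p under 0.05. All 6 fell on day 14 and 0 rose, where 4.8% of the tested genes fell and 3.65% rose. The 6 were Klra9, Klra8, Klrk1, Klrd1, Klrc1 and Klre1. Klrk1 alone had 20 CPM or more in each day 14 library, so the other 5 passed the filter through their day 7 level and their number is no measure of the family. The median change over all tested genes was 0.16 on this scale. It was -0.01 under a median-of-ratios scaling, under which the 6 genes fell as well.

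CD94 and the NKG2 proteins form dimers on NK cells and CD8 T cells. Klrd1, which encodes CD94, the shared partner of NKG2A and NKG2C, was at 51.5, 61.7 and 28.4 RPKM on day 7 and at 11.9, 9.82 and 6.45 on day 14. The groups did not overlap, although day 7 replicate 3 was lower than the other day 7 libraries, and Klrd1 fell by 2.02 on the log2 scale (SE 0.44, adjusted p = 0.0015). Klrc1, which encodes the inhibitory receptor NKG2A, was at 23.02, 30.6 and 25.0 RPKM on day 7 and at 7.84, 6.66 and 4.84 on day 14. Its 3 day 7 libraries stood close together, and it fell by 1.87 (SE 0.44, adjusted p = 0.00334). Klrk1, which encodes the activating receptor NKG2D, was at 17.7, 18.5 and 27.4 RPKM on day 7 and at 5.48, 4.999 and 5.05 on day 14. The day 14 libraries were nearly equal, and Klrk1 fell by 1.92 (SE 0.27, adjusted p = 1.78e-06).

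The other NKG2 genes were seen on day 7 in replicate 3 alone. Klrc3 (NKG2E) had 0, 0 and 15.8 RPKM on day 7 and 0.72, 0.65 and 0.92 on day 14. Klrc2, which encodes the activating receptor NKG2C, had 0, 0 and 3.22 RPKM on day 7 and 1.10, 0.41 and 0.26 on day 14. The days overlapped in both genes, and 7.34% of Klrc3 and 2.48% of Klrc2 cannot be told from another gene by a 150-base read. At a lower filter of 5 CPM Klrc2 was tested, with a difference of -0.40 (95% interval -1.88 to 1.07, adjusted p = 0.84).

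Among the 6 members tested at 20 CPM the largest falls were of 2 Ly49 genes, which encode the receptors for classical MHC class I. Both passed the filter through their day 7 level, so their falls do not describe the 14 Ly49 genes. In summed CPM the ratio of day 7 to day 14 was 5.17 for the Ly49 genes and 4.31 for CD94/NKG2. It was 6.19 for NKR-P1, 5.85 for Klrg1 and Klrg2, 5.44 for Klre1, Klri1 and Klri2, and 4.14 for Ncr1. Klra9, which encodes the inhibitory receptor Ly49I, was at 45.1, 47.9 and 37.2 RPKM on day 7 and at 1.79, 2.37 and 1.70 on day 14, and fell by 3.86 (SE 0.41, adjusted p = 8.73e-09). Klra8, which encodes Ly49H, an activating receptor known for recognising cytomegalovirus-infected cells, was at 31.4, 33.5 and 58.8 RPKM on day 7 and at 3.88, 6.01 and 3.82 on day 14. Its lowest day 7 library was several-fold above its highest day 14 library, and it fell by 3.03 (SE 0.43, adjusted p = 3.33e-06). By RPKM rank among the 30 genes, Klra9 was at place 2, 2 and 3 on day 7 and at place 16, 12 and 16 on day 14. Klra3, which encodes Ly49C and is a close copy of Klra9, had 0.30, 0.35 and 14.9 RPKM on day 7 and 3.41, 2.06 and 1.70 on day 14. The replicate 3 value of Klra3 stood apart from every other library, the days overlapped, and the difference at the 5 CPM filter was -0.47 (95% interval -2.36 to 1.42, adjusted p = 0.86).

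At 5 CPM, 20 members were tested in all. Of these 11 fell and 0 rose, where 3.11% of the 10913 genes tested fell and 4.03% rose. As at 20 CPM, most of these members passed through their day 7 level, so neither their number nor their common direction measures the family. The 6 with 5 CPM or more in each day 14 library were Klrk1, Klrd1, Klrc1 and Klre1, which fell, and Klrb1b and Klra2, which were not called. limma-voom at the 20 CPM filter also called 0 members higher. Among the Ly49 genes the lower filter added Klra10, Klra4 and Klra13-ps. Klra10 (Ly49J) was at 16.5, 19.8 and 12.3 RPKM on day 7 and at 0.64, 1.74 and 0.46 on day 14, and fell by 3.09 (SE 0.80, adjusted p = 0.0136). Klra4, which encodes the activating receptor Ly49D, was at 13.3, 12.2 and 25.9 RPKM on day 7 and at 0.99, 3.84 and 3.38 on day 14, and fell by 2.47 (SE 0.72, adjusted p = 0.0344). The pseudogene Klra13-ps was at 16.2, 14.5 and 44.3 RPKM on day 7 and at 4.30, 5.58 and 3.90 on day 14, and fell by 2.29 (SE 0.58, adjusted p = 0.0104). In each of these 3 genes the days did not overlap. Klra4 and Klra13-ps were highest in day 7 replicate 3.

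The remaining Ly49 genes were either not called or not tested. Klra7, which encodes the inhibitory receptor Ly49G, was at 8.03, 10.2 and 19.0 RPKM on day 7 and at 4.58, 4.28 and 2.67 on day 14. Its days did not overlap, but its difference of -1.58 (95% interval -3.07 to -0.08) had an adjusted p of 0.256. Klra6 (Ly49F) was at 15.1, 13.1 and 4.396 RPKM on day 7 and at 0.31, 0.14 and 0.94 on day 14, and Klra14-ps at 6.31, 6.17 and 7.44 on day 7 and at 2.92, 1.36 and 1.15 on day 14. Both were without overlap and below the filter of 5 CPM. Klra1, which encodes Ly49A, was at 0.71, 0.73 and 3.30 RPKM on day 7 and at 0, 0.54 and 1.79 on day 14, with overlap. Klra5 and Klra11-ps stayed under 1 RPKM in every library, with at most 4 and 2 reads.

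Klra2 and Klra17 had the estimates nearest to 0 among the 20 tested members. Klra2, which encodes Ly49B, a receptor known from myeloid cells, was at 5.95, 5.43 and 17.9 RPKM on day 7 and at 7.54, 10.9 and 8.39 on day 14. Its difference of -0.19 had an interval from -1.59 to 1.21 and an adjusted p of 0.934, and without day 7 replicate 3 it was 0.56 (adjusted p = 0.902), so no direction was found. Klra2 made up 1.77%, 1.53% and 3.92% of the family's reads on day 7 and 8.92%, 13.0% and 10.9% on day 14. By RPKM it was at place 19, 19 and 10 among the 30 genes on day 7 and at place 3, 1 and 1 on day 14. Klra17, which encodes Ly49Q, known from plasmacytoid dendritic cells, was at 18.7, 15.1 and 0 RPKM on day 7 and at 4.86, 2.54 and 2.52 on day 14. Its difference of -0.02 (95% interval -1.99 to 1.95) depended on the empty replicate 3 library, and without that library it was -2.10 (adjusted p = 0.268). The 5 plasmacytoid dendritic cell markers summed to 142 to 157 CPM on day 7 and to 95.3 to 108 CPM on day 14, and their part in the Klra17 values was not tested.

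**Figure D2:**
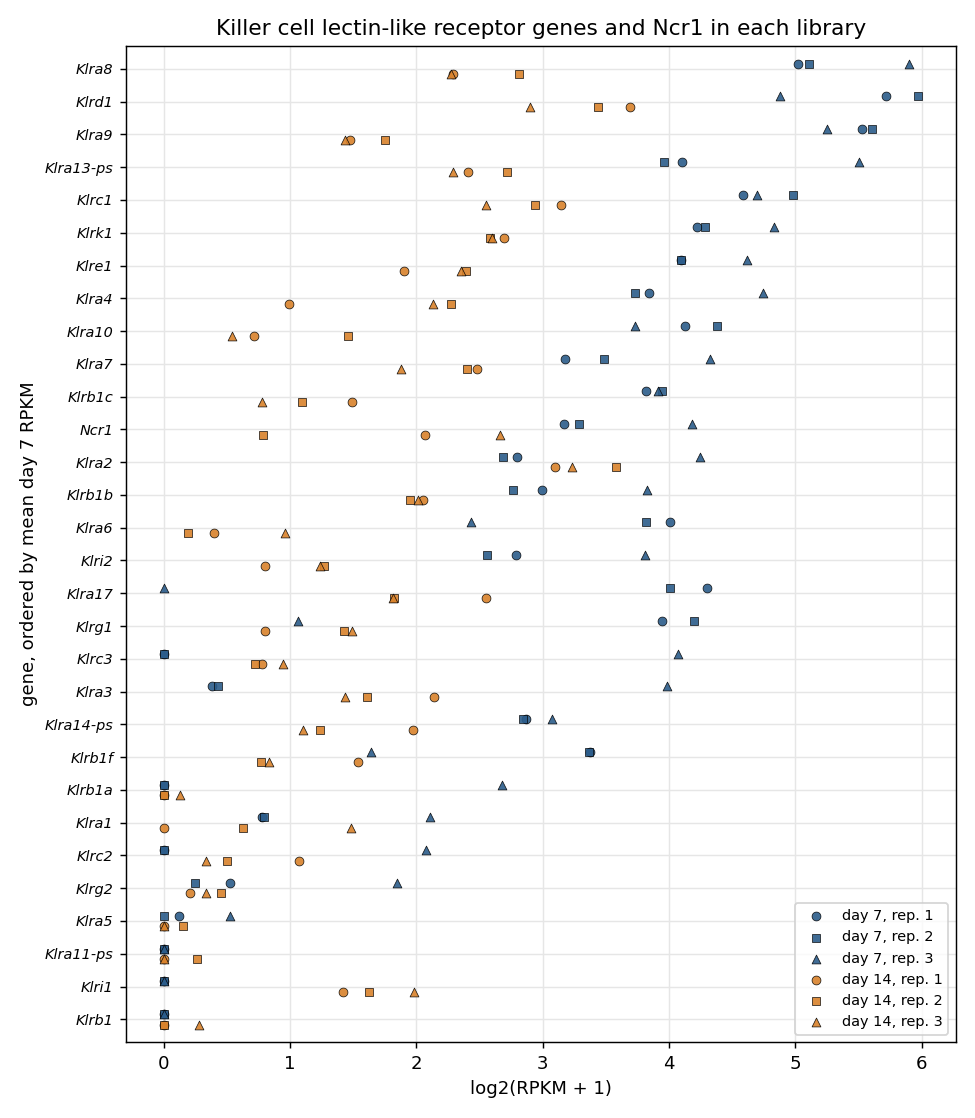
Level of the 30 receptor genes as log2(RPKM + 1), 1 point per library, with day 7 in blue, day 14 in orange and the replicates as circle, square and triangle. Klra8, Klrd1 and Klra9 have the highest day 7 means, whereas the days overlap in Klra2.

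Among the NKR-P1 genes Klrb1c fell. Klrb1c encodes NK1.1, the activating receptor by which NK cells of C57BL/6 mice are recognised, and was at 13.1, 14.4 and 14.1 RPKM on day 7 and at 1.81, 1.13 and 0.71 on day 14. The day 7 libraries were close together, and it fell by 2.78 at the 5 CPM filter (SE 0.51, adjusted p = 0.000428). Klrb1b, whose protein is the inhibitory receptor for Clec2d, was at 6.98, 5.78 and 13.2 RPKM on day 7 and at 3.15, 2.86 and 3.03 on day 14. Klrb1f (NKR-P1F) was at 9.36, 9.33 and 2.12 RPKM on day 7 and at 1.91, 0.71 and 0.78 on day 14. Neither overlapped between days, and neither was called, with differences of -1.35 (adjusted p = 0.286) and -1.46 (adjusted p = 0.364). Klrb1a had reads on day 7 in replicate 3 alone, at 5.38 RPKM, and had 0, 0 and 0.09 RPKM on day 14. Klrb1 had 4 reads, in day 14 replicate 3.

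KLRE1 is known to pair with KLRI1 into an inhibitory receptor and with KLRI2 into an activating receptor. Klre1 was at 16.1, 16.1 and 23.5 RPKM on day 7 and at 2.74, 4.24 and 4.11 on day 14, and fell by 2.14 (SE 0.37, adjusted p = 7.04e-05). Klri2 was at 5.90, 4.88 and 13.0 RPKM on day 7 and at 0.74, 1.40 and 1.36 on day 14, and fell by 2.14 at the 5 CPM filter (SE 0.52, adjusted p = 0.00783). Klri1 went the other way: it was listed at 0 in the 3 day 7 libraries and at 1.68, 2.09 and 2.96 RPKM on day 14, from 16, 22 and 33 reads. It passed neither filter, and no fold is given because it is unknown how many molecules these reads stand for. Of all genes with a read, 27% had every day 14 library above every day 7 library, and fewer genes had a read on day 7. Klri1 and Klri2 shared 91.6% of 536 aligned bases, yet no 150-base stretch of either was identical to another gene.

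Klrg1, known as a marker of effector CD8 T cells and mature NK cells, was at 14.4, 17.3 and 1.08 RPKM on day 7 and at 0.75, 1.69 and 1.81 on day 14. Replicate 3 of day 7 lay among the day 14 libraries, and the difference of -1.33 (95% interval -3.01 to 0.35) was not called (adjusted p = 0.45). Without that library it was -2.84 (adjusted p = 0.0424). Klrg2 was at 0.44, 0.19 and 2.60 RPKM on day 7 and at 0.15, 0.37 and 0.26 on day 14, with overlap. Ncr1 was at 7.98, 8.79 and 17.1 RPKM on day 7 and at 3.19, 0.72 and 5.32 on day 14. Every day 14 library of Ncr1 was below every day 7 library, and the spread within each day was wide, so the difference of -1.87 (95% interval -3.69 to -0.04) was not called (adjusted p = 0.277).

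**Figure D3:**
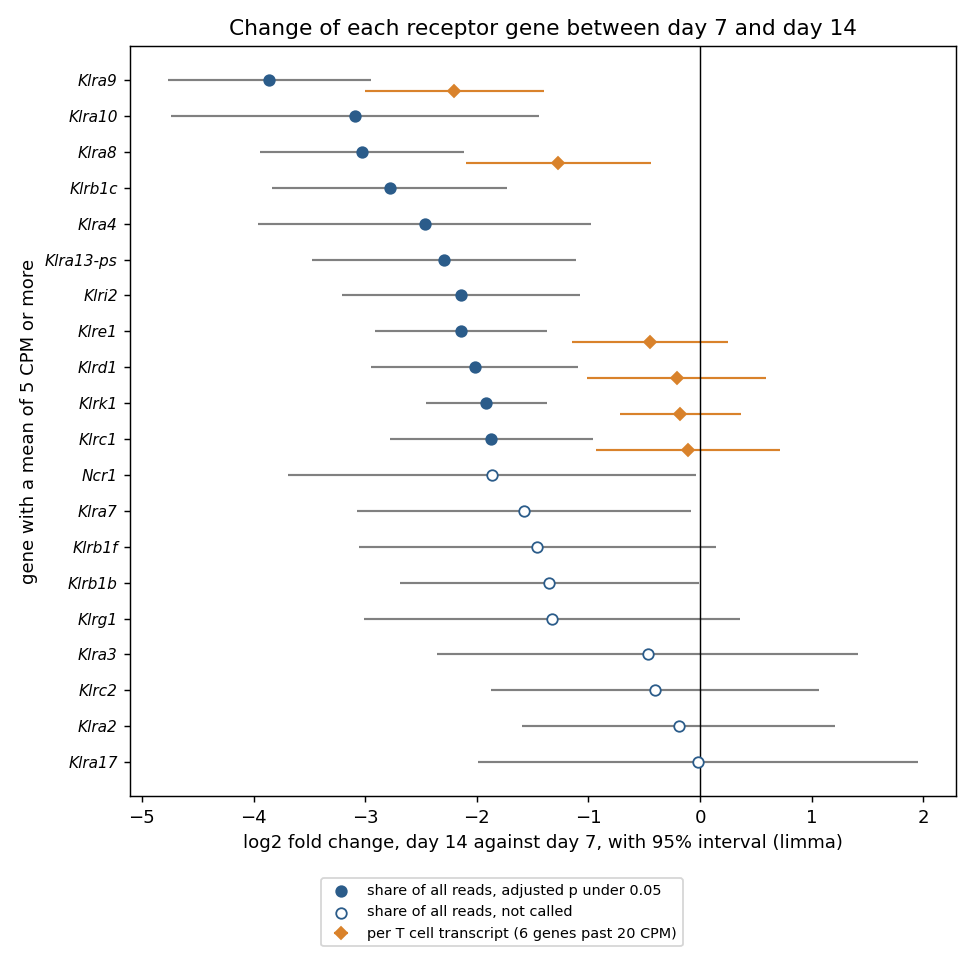
Difference between day 14 and day 7 on the log2(RPKM + 1) scale with its 95% interval for the 20 members at 5 CPM or more, and, as diamonds, the 6 members past 20 CPM after division by the summed T cell markers. Filled circles are the 11 members that fell. Klra9, Klra10 and Klra8 lie farthest to the left.

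Day 7 replicate 3 differed from the other day 7 libraries in many receptors. It did so over all genes compared as well, with median chi-square ratios of 40.9 and 44.4 against replicates 1 and 2. The share of all genes with differences as large as those counted here was not computed. In 20 members with 1 RPKM or more in both replicates 1 and 2, these agreed within a ratio of 1.33. Replicate 3 was more than 3 times their mean in 8 members and more than 3 times below it in 4. It had reads of Klrb1a, Klrc2 and Klrc3 where the other day 7 libraries had none, and no read of Klra17, of which they had reads. Among 20 members with a day 14 mean of 1 RPKM or more, 2 varied by more than 3-fold between the day 14 libraries. In the fit without day 7 replicate 3 the day 7 group is a single sample. Its spread was assumed to follow the day 7 variance trend found with all libraries, which replicate 3 itself helped to set. The calls of Klrk1, Klrd1, Klrc1 and Klre1 stood in that fit, with adjusted p from 0.00161 to 0.0485, where 3.37% of the 6733 genes tested fell and 2.66% rose, while Klra8 and Klra9 no longer passed 20 CPM. At 5 CPM without that library 8 of 17 tested members fell and 0 rose, where 2.93% of the 10904 genes tested fell and 8.79% rose. These were Klra9 (-4.02), Klra8 (-2.61), Klrb1c, Klre1, Klrd1, Klrk1, Klrc1 and Klrg1. In that fit a member could pass the filter through its single day 7 sample. Klra9, Klrb1c and Klrg1 had 2.18 to 3.03, 2.10 to 5.36 and 1.05 to 2.55 CPM in the day 14 libraries. As at 20 CPM, neither the number of members called at 5 CPM without that library nor their common direction measures the family. Klra4, Klra13-ps and Klri2 were not called there, with differences of -1.99, -1.56 and -1.57 and adjusted p of 0.405, 0.489 and 0.307, and Klra10 was not tested.

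Expressed per T cell transcript, Klra8 and Klra9 fell and the other 4 members past 20 CPM were not called. Each RPKM was divided by the summed RPKM of the 12 T cell markers, with sums of 575 and 529 on day 7 (n = 2) and of 141, 146 and 152 on day 14 (n = 3). On this scale the differences of Klrk1, -0.18 (95% interval -0.72 to 0.37), Klrd1, -0.21 (-1.01 to 0.59), Klrc1, -0.11 (-0.93 to 0.72) and Klre1, -0.45 (-1.15 to 0.25), were not called. Klra9 fell by 2.20 (SE 0.41, adjusted p = 2.86e-07) and Klra8 by 1.27 (SE 0.42, adjusted p = 0.00306). The scale moves the whole table, with a median over all tested genes of 1.86, and 6357 of 6691 genes rose and 17 fell. Klra8 and Klra9 were among those 17. Klra8 was at 4.57, 7.09 and 4.51 CPM on day 14 and Klra9 at 2.28, 3.03 and 2.18. Both passed the 20 CPM filter through their day 7 level, so their place among the 17 does not set them apart. A difference between these Ly49 genes and the NKG2 genes was not tested.

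**Figure D4:**
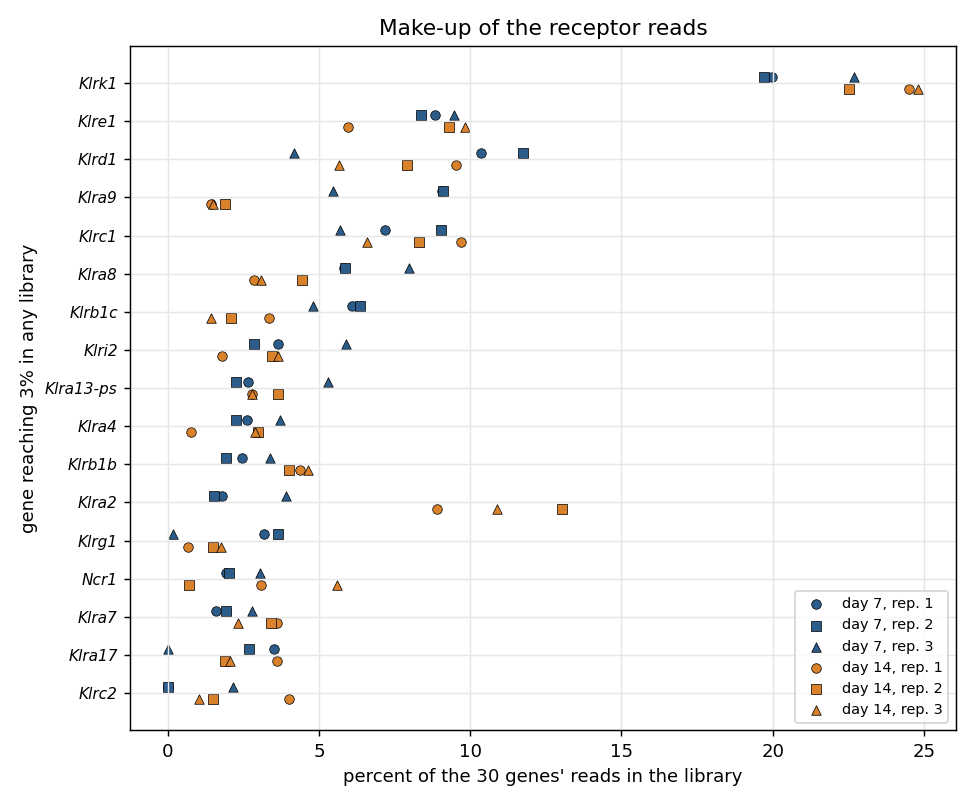
Share of the reads of the 30 receptor genes taken by each gene that reaches 3% in any library, in percent, with 1 point per library, day 7 in blue and day 14 in orange. Klrk1 takes 19.7% to 24.8% in every library, whereas Klra2 takes 1.53% to 3.92% on day 7 and 8.92% to 13.0% on day 14.

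Shares within the family describe its makeup in each library. Klrk1 gave 19.97%, 19.7% and 22.7% of the family's reads on day 7 and 24.5%, 22.5% and 24.8% on day 14. Shares of reads are not corrected for gene length, and the Klrk1 model is 7183 bases long. By RPKM Klrk1 was at place 6, 6 and 5 on day 7 and at place 4, 6 and 4 on day 14. Klra9 gave 9.07%, 9.10% and 5.47% on day 7 and 1.42%, 1.90% and 1.49% on day 14. Klrd1 ranked at place 1, 1 and 4 by RPKM on day 7 and at place 1, 2 and 2 on day 14.

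The signalling partners of the receptors were compared as lists, and of 43 pathway genes tested 14 fell and 1 rose. Of all 6691 genes tested 4.8% fell and 3.65% rose. Of 18 tested adaptors and kinases 4 fell and 0 rose, with a median of -0.62 against 0.16 over all genes tested. Lck, the kinase of CD4 and CD8, fell by 2.25 (adjusted p = 8.99e-08), and Pik3cd, Plcg2 and Vav1 fell by 1.03, 0.93 and 0.89. The Plcg2 call was lost without day 7 replicate 3 (adjusted p = 0.523) or day 14 replicate 1, and the Vav1 call without day 14 replicate 2 or 3. Of the adaptors Tyrobp, Hcst and Fcer1g, Fcer1g alone passed the 20 CPM filter, and it was not called. Tyrobp (DAP12) was at 7.52, 4.51 and 33.1 RPKM on day 7 and at 23.4, 18.6 and 22.4 on day 14. In limma at the 5 CPM filter its difference was 0.53 (adjusted p = 0.801). Hcst (DAP10), the NKG2D adaptor, was listed at 0 on day 7 and at 0.24, 1.10 and 1.87 on day 14. It passed neither filter, and 27% of all genes with a read had this order of the days. Fcer1g, the adaptor of NKp46 and NK1.1, was at 31.6, 31.2 and 32.3 RPKM on day 7 and at 29.6, 25.4 and 24.1 on day 14 (difference -0.27, adjusted p = 0.835). Tyrobp and Fcer1g are also expressed by macrophages. The summed macrophage and monocyte markers were higher on day 14, while Adgre1, C1qc, Ms4a7 and Ly6c2 of that list had lower means than on day 7. The part of macrophages in the Tyrobp and Fcer1g values was not tested. Of 3 phosphatases tested Ptpn6, which encodes SHP-1, fell by 1.03 (adjusted p = 6.48e-07), from 195, 200 and 161 RPKM on day 7 to 89.2, 84.8 and 86.2 on day 14.

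Genes of the ligands were measured in the same libraries, which hold tumour cells as well as lymphocytes. Of 5 MHC class I genes tested 3 fell and 0 rose, with a median of -0.76. H2-T23, which encodes the heavy chain of Qa-1, the ligand of CD94/NKG2A, was at 53.8, 51.0 and 94.99 RPKM on day 7 and at 29.7, 31.1 and 28.8 on day 14, and fell by 1.21 (adjusted p = 0.000251), a call lost without day 7 replicate 3 (-0.79, adjusted p = 0.245). H2-D1 and H2-K1, ligands of Ly49 receptors, fell by 0.93 and 0.76. B2m, the common light chain, was at 384, 378 and 438 RPKM on day 7 and at 314, 303 and 272 on day 14 (difference -0.47, adjusted p = 0.0898). Of the 9 NKG2D ligands 4 were in the table, and 0 passed the filter. These 4 summed to 0.25, 0 and 4.91 CPM on day 7 and to 7.73, 13.5 and 10.2 on day 14. In this sum every day 14 library was above every day 7 library, an order that 27% of single genes with a read had. Clec2d, the ligand of NKR-P1B, was at 4.76, 5.31 and 1.77 RPKM on day 7 and at 1.67, 3.28 and 2.48 on day 14, below the filter, and 0 of the 5 Clec2 genes in the table passed. Of the cadherin ligands of KLRG1 1 was tested and not called.

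Other receptors and the transcription factors of these lymphocytes were mixed. Of 8 tested receptors outside the family 3 fell and 0 rose: Havcr2 (TIM-3) by 1.33, Tigit by 1.82 and Cd244 (2B4) by 1.70. Of 8 tested transcription factors 3 fell and 1 rose. Eomes, which drives the NK and memory CD8 T cell programmes, was at 9.06, 8.35 and 9.003 RPKM on day 7 and at 2.22, 2.15 and 2.46 on day 14, and fell by 1.59 (adjusted p = 0.0298). Stat4 and Ikzf3 fell by 1.39 and 1.10, and Zeb2 rose by 0.79 (adjusted p = 0.00203). Without day 7 replicate 3 Zeb2 was still called and the other 3 were not: Stat4 was at -1.11 (adjusted p = 0.28), Ikzf3 at -0.59 (adjusted p = 0.614), and Eomes fell under the filter. The Eomes call was also lost without day 14 replicate 2 (adjusted p = 0.0577). Tbx21, which encodes T-bet, was at 7.87, 8.59 and 0.25 RPKM on day 7 and at 1.24, 1.09 and 1.69 on day 14. Its value in day 7 replicate 3 was below every day 14 library.

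Of the markers of other cells, Gzma, Prf1, Il18rap and Il12rb2 led the NK cell list and fell by 4.19, 2.48, 1.64 and 1.51, with Gzma at 402, 399 and 393 RPKM on day 7 and at 18.2, 20.6 and 23.9 on day 14. Trac, the constant part of the alpha chain of the T cell receptor, was at 88.7, 88.4 and 67.7 RPKM on day 7 and at 17.0, 12.01 and 15.7 on day 14. Cd8a, the target of the beads, was at 17.3, 16.4 and 42.3 RPKM on day 7 and at 8.501, 8.01 and 7.08 on day 14. Trac and Cd8a fell by 2.32 and 1.65. Of the same list Cd8b1, Cd2 and Cd3d also fell, with differences of -1.95, -1.78 and -2.12. Mrc1 and Lyz2 of 8 tested macrophage markers rose, and Tyrp1, Dct and Mlana of 7 tested melanoma markers rose. Without day 7 replicate 3 the calls of Cd8a (-1.01, adjusted p = 0.341), Cd3d, Il12rb2, Mrc1, Lyz2 and Mlana were lost. The 7 markers of NKT and gamma-delta T cells summed to 22.7 to 54.5 CPM on day 7 and to 5.97 to 7.56 on day 14, with Sox13 and Tcrg-C1 at 0 in each day 7 library. The 4 CD4 and regulatory T cell markers summed to 89.1 to 120.7 CPM on day 7 and to 55.4 to 59.8 on day 14, and 0 of 3 tested were called. Dendritic cell markers summed to 52.9 to 112 CPM over the 6 libraries, and the B cell, fibroblast and endothelial lists to at most 59.0 CPM each. Neutrophil markers (6 genes) summed to 22.5, 15.999 and 23.6 CPM on day 7 and to 47.6, 51.7 and 61.8 on day 14, a ratio of 2.51. Of these S100a9, at 6.25, 3.29 and 8.81 RPKM on day 7 and at 39.2, 36.6 and 49.2 on day 14, rose by 2.49 at the 5 CPM filter (adjusted p = 0.0331).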

How the data were processed

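PolyA RNA of 6 libraries (3 of day 7, 3 of day 14) was measured by paired, stranded sequencing with molecular identifiers, per the labels' protocols. The authors deposited RPKM per gene, and per the submitters' processing notes used Trimmomatic 0.36 and featureCounts of Subread 1.5.1 on GRCm38. For the aligner, the strand setting and the use of the identifiers, the sources used here give nothing, and 2 reads stand for 1 fragment, since most low read numbers were even. Reads were recovered from RPKM and gene length: the largest deviation from whole numbers was 3.39e-05, within a tolerance of 0.001. CPM are reads per 1000000. Where a day had no read of a gene, no bound on its fold was computed, since reads are not single molecules.

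Replicates were compared over genes whose reads in the pair of libraries summed to at least 40, and day 7 replicates 1 and 2 were then counted as 1 sample. limma 3.58.1 (R 4.3.3) was fitted to log2(RPKM + 1) of genes averaging at least 20 CPM across the 5 samples, with 1 coefficient for the day. Weights per day came from the variance within days, smoothed by loess against mean log2 CPM (span 0.3, floor 0.005), and the moderated test used a trend and Benjamini-Hochberg adjustment over all tested genes. A gene was called at an adjusted p under 0.05. The script was tested on simulated data. Fold changes on this scale understate the change of low genes. Alternatives were other filters, pseudocounts, weights and scalings, each library left out, and limma-voom on the recovered reads, a count test. The low replicate number limits precision.

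The members and the lists of markers and pathway genes were chosen with earlier results of these data known. Values were given per library for each member past the filter or with a mean of 1 RPKM or more on either day, and other members by their range. From each list up to 4 called genes with the smallest p were named, beside Tyrobp, Hcst, Fcer1g, H2-T23, B2m, Eomes, Tbx21, Clec2d, Cd8a, Cd8b1 and Trac. Start-site sequences came from RefSeq (GRCm38.p6), in which 24 members had an entry by symbol.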

Additional observations from a re-analysis of the deposited data

How the results depend on the processing

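Over the alternatives run, the log2 fold changes of the 6 members past 20 CPM kept their direction, and 107 of their values also kept their side of the threshold. The 5 exceptions lost the call: Klrk1, Klrd1, Klrc1 and Klre1 per T cell transcript (-0.18, -0.21, -0.11 and -0.45), and Klrd1 without a filter (-2.02). Members that fell numbered 6, against 11 with a filter of 5 CPM, 11 with a filter of 1 RPKM in 2 samples and 2 per T cell transcript. Leaving out 1 library gave 4 to 8. No member rose, except 1 (Klri1) with the filter of 1 RPKM and 1 without a filter. limma-voom called 6 members lower and 0 higher.

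Of the pathway genes 14 fell, and leaving out 1 library gave 12 to 15. The number was 8 without a filter, 8 with weights from the mean RPKM (added after seeing the data), 22 with 6 libraries counted singly, 26 with limma-voom and 0 per T cell transcript. The 1 that rose became 0 with weights from the mean RPKM, 34 per T cell transcript, and 2 with the filter of 1 RPKM, without a filter, with 6 libraries counted singly (with or without weights), with limma-voom, with the replicate block, and at 5 CPM without day 7 replicate 3.

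Over all genes 244 rose and 321 fell. These numbers were 986 and 722 when each of the 6 libraries counted as a sample, 833 and 939 with limma-voom, 601 and 410 without weights, 1374 and 246 without a filter, 1139 and 356 with the filter of 1 RPKM, 440 and 339 at 5 CPM (959 and 320 there without day 7 replicate 3), 118 and 211 with weights from the mean RPKM, and 179 and 227 without day 7 replicate 3. Under median-of-ratios scaling 109 rose and 446 fell. The cause of these shifts was not tested.

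The labels number the libraries 1 to 3 on each day. Deviations of same-numbered libraries correlated at -0.0365 to -0.0128 and 0 of 6 libraries correlated best with their own number. These correlations cannot decide whether the numbers are a pairing. The day 7 replicates averaged as 1 sample differed by little more than sampling noise. Their deviations from the day mean were therefore nearly alike and could not point to separate partners. With the replicate block, 7 members fell and 0 rose, as without it on the same 6 libraries, the pathway genes fell in 14 and over all genes 656 rose and 499 fell, against 1191 and 779 without the block.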
